A study of Mus musculus with 26 samples.

Results

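Mechanically gated ion channel genes were examined in spheroids of mouse motor neurons that were exposed to muscle-conditioned medium or to movement of the matrix below them. The members were the 9 genes listed by symbol as Piezo1, Piezo2, Trpv4, Trpc1, Trpm7, Pkd2, Tmem63a, Tmem63b and Tmem63c, out of 56941 genes in the deposited tables. They were listed by symbol and not by a cut on measured values, though with earlier results of these data known. All 9 were found by symbol, 8 passed the filter on low counts and were fitted, and Trpv4 did not pass it.

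The study asked, by its title, which effects of exercised muscle on motor neurons are biochemical and which mechanical. Total RNA of 26 samples was sequenced after depletion of ribosomal RNA, and there were 5 groups. Every sample came from 1 mouse embryonic stem cell line, HBG3 mESC HB9::GFP, which carries a green fluorescent reporter driven by the motor neuron gene HB9 and whose genotype is labelled heterozygous blastocysts. The stem cells were expanded on feeder cells, differentiated with retinoic acid and puromorphamine (the labels' spelling of a hedgehog agonist), given glial derived neurotrophic factor with ciliary neurotrophic factor after 5 days, and seeded as spheroids on fibrin at about day 8. The 6 control samples are labelled biochemical controls. The labels call 6 samples high intensity and 6 low intensity biochemical stimulation. The design text describes medium from optically stimulated muscle and medium from muscle that was not stimulated, but the labels do not tie these to the names high and low, so the groups keep the labels' names here, and that both received muscle medium is an assumption. The 4 static samples sat on a magnetic silicone array that was never moved. The 4 actuated samples sat on an array that was moved at 4 Hz for 30 min each day. Nothing in the labels says that the samples of a group came from separate cultures, so the p-values measure only the spread between these samples, which may be technical.

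PIEZO1 and PIEZO2 form large trimeric channels that open when the membrane is stretched or bent and let cations, calcium among them, into the cell. PIEZO2 is best known as the touch and position sensor of sensory neurons, and PIEZO1 as a force sensor of vessels, blood cells and connective tissue cells. The TRP family members are cation channels whose opening by force is in several cases indirect or debated, and the TMEM63 proteins, relatives of the plant OSCA channels, open on stretch or on changes in osmolarity.

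The sequences just upstream of 4 members are shown because the results turn on these genes: Piezo1 and Tmem63a had the largest estimated differences, Tmem63b was the most abundant member and Trpv4 the least. Each run is the 250 bases before the gene's start in RefSeq (GRCm38.p6), 5′ to 3′ on the gene's strand. Windows of 8 of the 9 members enter the counts below, and Piezo2 was left out of them. Capitals mark the GC box letters GGGCGG and the TATA letters TATAAA, each searched on both strands; the TEAD core GGAATG was searched too and is in none of the 4.
Piezo1: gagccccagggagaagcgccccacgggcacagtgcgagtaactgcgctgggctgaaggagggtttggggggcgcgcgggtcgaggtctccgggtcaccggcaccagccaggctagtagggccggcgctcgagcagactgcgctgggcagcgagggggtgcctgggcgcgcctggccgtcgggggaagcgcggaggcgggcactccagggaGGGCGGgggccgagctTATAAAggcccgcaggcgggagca
Tmem63a: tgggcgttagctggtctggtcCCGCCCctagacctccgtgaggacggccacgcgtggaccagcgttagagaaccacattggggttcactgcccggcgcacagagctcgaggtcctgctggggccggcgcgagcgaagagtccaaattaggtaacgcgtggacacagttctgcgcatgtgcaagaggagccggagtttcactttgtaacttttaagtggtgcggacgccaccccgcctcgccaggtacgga
Tmem63b: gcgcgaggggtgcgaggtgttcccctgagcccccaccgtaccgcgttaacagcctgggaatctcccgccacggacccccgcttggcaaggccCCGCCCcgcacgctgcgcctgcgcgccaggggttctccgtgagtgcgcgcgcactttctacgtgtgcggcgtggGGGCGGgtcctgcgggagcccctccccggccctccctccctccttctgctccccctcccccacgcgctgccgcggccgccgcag
Trpv4: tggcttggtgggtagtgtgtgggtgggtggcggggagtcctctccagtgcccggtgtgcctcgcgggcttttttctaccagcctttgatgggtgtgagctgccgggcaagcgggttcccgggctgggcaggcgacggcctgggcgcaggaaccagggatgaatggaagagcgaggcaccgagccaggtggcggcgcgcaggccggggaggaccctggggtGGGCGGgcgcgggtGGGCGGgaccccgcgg
The Piezo1 window (chr8:122551330-122551579, minus strand) holds 1 GC box and 1 TATA match. The Tmem63a window (chr1:180942268-180942517, plus strand) holds 1 GC box, the Tmem63b window (chr17:45686219-45686468, minus strand) 2 and the Trpv4 window (chr5:114658422-114658671, minus strand) 2. GC boxes were found in 5 of the 8 members, against 32.7% of all 32851 windows of this length. The TATA letters were in 2 members against 12.4%, and the TEAD core in 2 members, Pkd2 and Tmem63c, against 12.6%. Members were counted by gene over 9 windows, since Tmem63c has 2, and its TATA and TEAD matches lay in different windows. CpG pairs numbered 26 before Piezo1, 23 before Tmem63a, 31 before Tmem63b and 22 before Trpv4, and the median over all windows was 6. These matches are descriptions of letters, not measured binding.

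Depth differed between the arms and between libraries. In 21 libraries protein-coding genes took at least 1000000 counts, and these deeper libraries had total counts of 1551334 to 3971348 in the biochemical arm and 7269276 to 13162635 in the array arm. They were 5 control, 5 low intensity, 4 high intensity, 3 static and 4 actuated libraries. The other 5 libraries held 1536 to 1457250 counts, and in 1 of them, control replicate 4, 78.4% of the counts fell on ribosomal RNA genes. Values and tests below are from the deeper libraries. Values with all 26 are given for the fitted members whose log2 difference comes with a standard error (SE). All 5 motor neuron markers checked (Mnx1, Isl1, Chat, Slc18a3 and Slc5a7) were detected in every deeper library, with a summed level of 67.8 to 161 CPM (counts scaled to the same library total). Of the 3 pluripotency markers, 0 to 3 were detected per library, at a summed 0 to 5.04 CPM. Astrocyte or radial glia markers (5 genes) summed to 2120 to 4466 CPM, oligodendrocyte lineage markers (5 genes) to 77.2 to 542 CPM and microglia markers (4 genes) to 0.288 to 29.0 CPM. Because these are bulk samples, fewer cells of a type and less RNA per cell cannot be told apart.

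Levels were compared between genes per length, in TPM, the deposited transcript level per length and library total. Tmem63b, which encodes a widely expressed TMEM63 channel, had the highest mean level at 54.1 TPM ± 17.5 (SD, n = 21 libraries) and ranked first in 20 of 21. Piezo2 followed at 20.2 TPM ± 9.56. Trpm7, a channel fused to a protein kinase, averaged 11.7 TPM ± 5.21 and Pkd2, the polycystin-2 channel of primary cilia, 11.7 TPM ± 3.41. These neighbours did not hold an order, since Trpm7 was above Pkd2 in 8 of 21 libraries.

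Trpc1, a subunit of receptor-operated TRP channels, averaged 7.12 TPM ± 2.78 and Piezo1 6.06 TPM ± 3.68. Trpc1 was above Piezo1 in 15 of 21 libraries, and Piezo1 above Tmem63c, at 4.58 TPM ± 3.07, in 13. These 3 genes therefore overlapped over libraries. Tmem63a averaged 2.15 TPM ± 1.80 and was below Tmem63c in 17 of 21. Trpv4, the osmotically sensitive vanilloid channel, was lowest at 0.382 TPM ± 0.553. By mean TPM Tmem63b was above 91.3% of protein-coding genes, Piezo2 above 77.6% and Trpv4 above 34.2%.

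**Figure D1:**
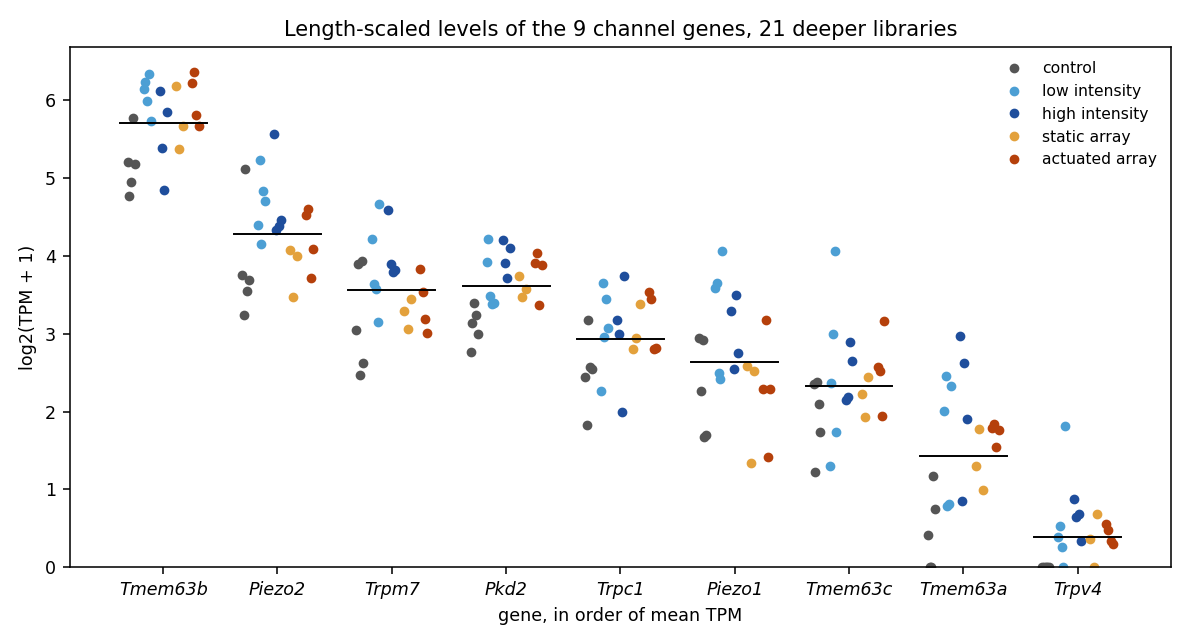
Level of each member gene in the 21 deeper libraries, as log2(TPM + 1), coloured by group; the black line is the mean of all libraries. Tmem63b lies above all other members in 20 of 21 libraries and Trpv4 lies lowest by its mean of 0.382 TPM.

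Within each family 1 member held most of the transcript level. Tmem63b made up 88.8% ± 5.24 (SD, n = 21) of the summed TPM of the 3 TMEM63 genes, with a range of 70.5% to 95.1%. Piezo1 made up 22.6% ± 8.06 of the summed TPM of both PIEZO genes, and its range of 12.1% to 38.5% left Piezo2 the larger part in every deeper library. The highest Piezo1 share was that of low intensity replicate 5. Tmem63b alone was 45.9% ± 7.99 of the summed level of all 9 members.

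The comparisons between groups used CPM with TMM library sizes and edgeR's quasi-likelihood test over 14730 genes, with Benjamini-Hochberg adjustment. None of the 8 fitted members passed an adjusted p of 0.05 in any of the 5 comparisons. Of all genes 0% passed in actuated against static, 0% in high against low intensity and 0.713% in static against control. Against the control, 0.462% passed for the high and 0.597% for the low intensity label. At an unadjusted p under 0.05 the members counted 2 for high intensity against control (15.9% of all genes) and 3 for low intensity (15.2%). They counted 1 between the intensity labels (7.68%), 0 for actuated against static (0.38%) and 0 for static against control (12.6%). The groups of a comparison did not overlap for 1 member in actuated against static and for 0 in the others, where the share of all genes was 3.56% for the high and 2.25% for the low label against control, 2.63% between the intensity labels and 8.14% for static against control. DESeq2 called 1 member, Tmem63a, in high intensity against control, where it called 3.17% of all genes tested. The edgeR fit without the filter on low counts called 3 members (Piezo1, Piezo2 and Tmem63a) in that comparison and 1.88% of all genes, and 1 member (Piezo1) and 1.77% of all genes for low intensity. A count of 0 with these few libraries does not show that the genes were equal, and the intervals given below bound the differences. High intensity, low intensity and static libraries were all set against the same control libraries, so their differences are not independent of each other.

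Piezo1 had a coefficient of variation of 64.2% over the 21 libraries, above the 29.4% of Piezo2. Its levels in the controls (replicates 1, 2, 3, 5 and 6) were 29.6, 36.4, 32.3, 16.4 and 18.5 CPM. In the low intensity libraries (replicates 1 to 5) they were 57.5, 59.6, 24.5, 27.2 and 107.1 CPM. Low intensity replicates 1, 2 and 5 were above every control, while replicates 3 and 4 lay within the control range. The edgeR log2 difference of low intensity from control was 1.06 (SE 0.38, adjusted p = 0.165, 95% interval 0.28 to 1.83), a fold of 2.08. Without low intensity replicate 5 the log2 difference was 0.67, and with all 26 libraries it was 1.14 (adjusted p = 0.678). With no filter on low counts Piezo1 passed edgeR's test in low intensity against control (adjusted p = 6.2e-05). The log2 difference there was again 1.06, and the SE was smaller, at 0.21.

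In the high intensity libraries (replicates 1, 2, 3 and 6) Piezo1 was at 50.7, 38.5, 66.2 and 23.7 CPM. Replicates 1, 2 and 3 were above every control and replicate 6 lay within the control range, so the groups overlapped, and the 95% interval of the edgeR log2 difference was -0.08 to 1.56. Static libraries (replicates 1, 2 and 4) were at 18.8, 11.98 and 28.6 CPM and actuated libraries (replicates 1 to 4) at 18.5, 37.9, 11.1 and 26.1 CPM. The actuated range enclosed the static one, and the 95% interval of the edgeR fold of actuated over static Piezo1 was 0.639 to 2.23. In the annotation (GENCODE vM21) Piezo1 overlaps Ctu2 on the opposite strand. The labels and headers do not say whether counting used the strand, and reads of the overlapping part cannot be told apart.

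Piezo2 stood at 91.2, 110.7, 140.7, 106.2 and 95.4 CPM in the controls. In the high intensity libraries it was at 206.6, 148.0, 162.3 and 97.0 CPM. Replicates 1, 2 and 3 were above every control and replicate 6 was not. The edgeR log2 difference of high intensity from control was 0.50 (SE 0.20, adjusted p = 0.209, 95% interval 0.09 to 0.91). It was 0.67 when high intensity replicate 6 was left out, 0.32 when replicate 1 was, and 0.85 with all 26 libraries (adjusted p = 0.541). With no filter on low counts it was 0.52 with a smaller SE of 0.15, and it passed edgeR's test (adjusted p = 0.0339).

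The low intensity libraries held 125.0, 228.5, 108.3, 121.4 and 138.4 CPM of Piezo2. Only replicate 2 was above every control. The edgeR log2 difference from control was 0.41 (SE 0.19, adjusted p = 0.296), and it was 0.19 without low intensity replicate 2. With all 26 libraries it was 0.45 (SE 0.35, unadjusted p = 0.208 by edgeR). In the array arm the static libraries were at 94.9, 90.3 and 119.9 CPM and the actuated libraries at 113.5, 113.0, 94.1 and 112.5 CPM. These ranges overlapped, and the 95% interval of the edgeR fold of actuated over static Piezo2, 0.777 to 1.46, was narrower than that of Piezo1.

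Piezo1 and Piezo2 varied together over libraries, with a Spearman rho of 0.79 (Pearson r 0.72) over 21 libraries, 0.77 within the 14 biochemical libraries and 0.68 within the 7 array libraries. These are descriptions over libraries that share a cell source, and the 21 libraries differ in arm and depth. This pair had the highest of the 28 rank correlations between fitted members, which ranged from -0.42 to 0.79. Summed levels of 7 mesenchymal or fibroblast markers (Col1a1, Col1a2, Col3a1, Pdgfrb, Lum, Dcn and Postn) moved with both genes, with a rho of 0.70 for each. Summed levels of 5 neuron markers (Tubb3, Rbfox3, Snap25, Syt1 and Elavl3) ran opposite, with a rho of -0.86 for Piezo1 and -0.67 for Piezo2.

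**Figure D2:**
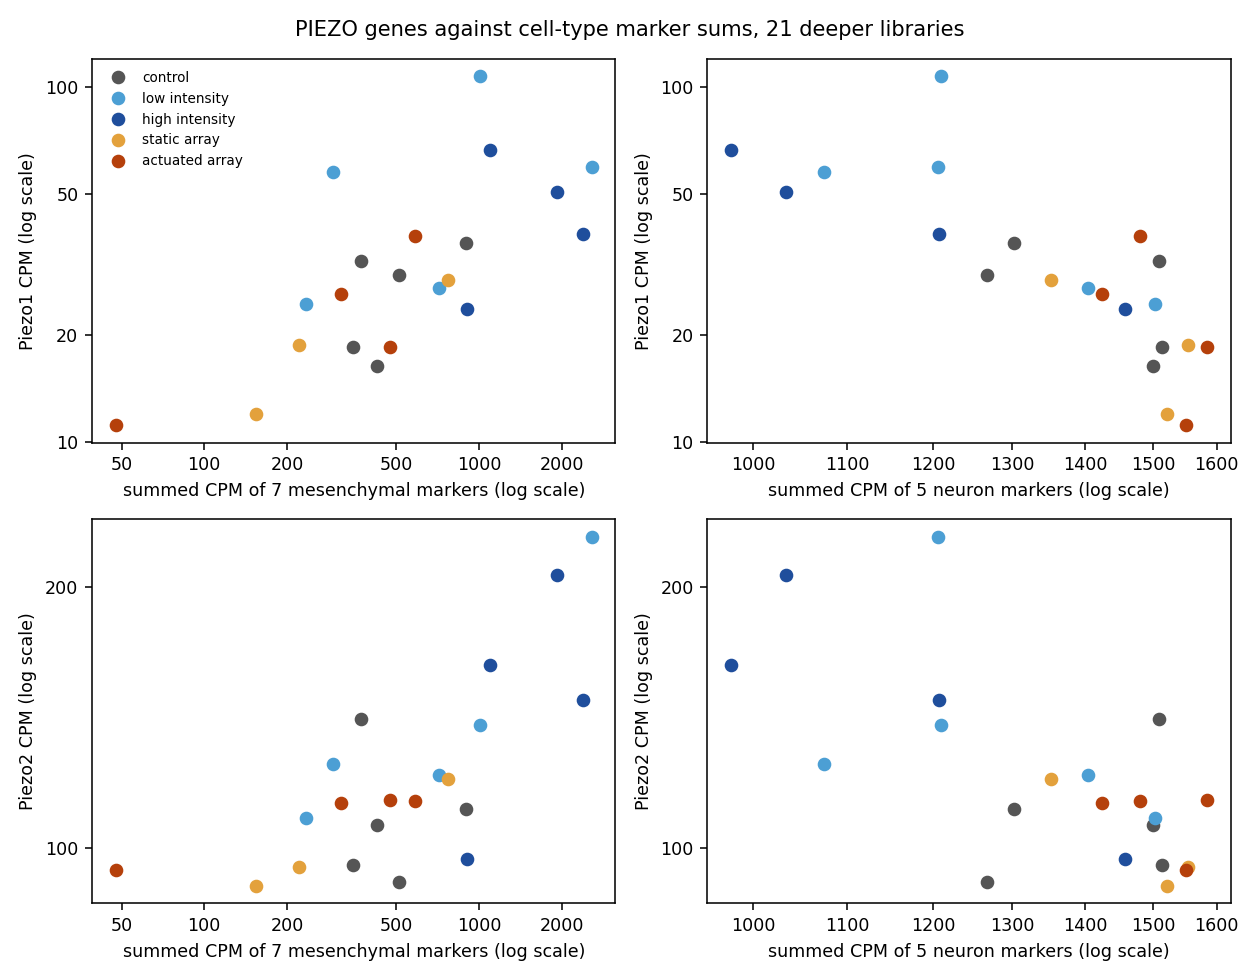
Level of Piezo1 (top) and Piezo2 (bottom) in CPM against the summed CPM of the mesenchymal markers (left) and of the neuron markers (right), on log scales, 1 point per deeper library coloured by group. Both genes rank with the mesenchymal sum (rho 0.70 for each) and against the neuron sum (rho -0.86 and -0.67).

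The mesenchymal sum was 348 to 895 CPM in the controls, 902 to 2390 CPM in high intensity and 234 to 2567 CPM in low intensity libraries. It was 154 to 769.9 CPM in static and 47.7 to 583 CPM in actuated libraries. The high intensity and control ranges did not overlap, and none of the 7 markers was at 0 in any group as a whole. In edgeR's test 0 of the 7 passed in any comparison, with an unadjusted p under 0.05 for 4 of them in high intensity against control. The neuron sum was 1268 to 1514 CPM in the controls, 978 to 1458 CPM in high intensity and 1075 to 1502 CPM in low intensity libraries. The part of these markers in the PIEZO differences was not tested. Within the 14 biochemical libraries the rho of the mesenchymal sum was 0.56 with Piezo1 and 0.64 with Piezo2, and that of the neuron sum -0.82 and -0.66. Within the 7 array libraries the rho of the mesenchymal sum was 0.86 and 0.93, and that of the neuron sum -0.61 and -0.29.

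Endothelial cells, which line vessels, are among the cells best known for PIEZO1, so their markers were checked in the same libraries. The 5 markers Pecam1, Cdh5, Kdr, Tek and Tie1 summed to 0.68 to 34.6 CPM over the deeper libraries, and Tek was at 0 in every low intensity library. The part of these cells in the Piezo1 level was not tested.

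Among the 3 fitted TRP and polycystin genes, Pkd2 was the only one with an unadjusted p under 0.05 in the fit of the deeper libraries. The controls held 57.2, 59.6, 59.2, 47.3 and 43.8 CPM of Pkd2 and the high intensity libraries 69.1, 69.7, 71.5 and 55.9 CPM. In the low intensity libraries it was at 55.9, 66.7, 39.5, 38.6 and 46.9 CPM. High intensity replicates 1, 2 and 3 were above every low intensity and every control library, and replicate 6 was within both ranges. The edgeR log2 difference of high from low intensity was 0.42 (SE 0.16, adjusted p = 0.541, 95% interval 0.10 to 0.74). With all 26 libraries it was 0.19 (adjusted p = 1.00). Over the 14 biochemical libraries Pkd2 had a rho of 0.68 with the mesenchymal sum and -0.64 with the neuron sum, and the part of these markers in its difference was not tested.

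Static libraries were at 50.4, 52.7 and 51.9 CPM of Pkd2, the tightest group of the study for this gene, with an SD of 1.17 CPM. Actuated libraries, at 51.5, 58.1, 47.8 and 62.3 CPM, lay on both sides of them. The 95% interval of the edgeR fold of actuated over static Pkd2 was 0.835 to 1.35, the narrowest of the members in that comparison.

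Trpm7 ranged from 38.8 to 98.3 CPM over the deeper libraries. Control replicate 1, at 98.3 CPM, was the highest library, and the other 4 controls were at 38.8 to 54.7 CPM. Its edgeR log2 difference from control was 0.04 for high intensity (95% interval -0.39 to 0.47) and 0.04 for low intensity (95% interval -0.37 to 0.45). Trpc1 ranged from 9.52 to 28.1 CPM, and its log2 difference from control was -0.19 for high and -0.29 for low intensity, with 95% intervals that held 0. Neither gene separated any groups.

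Trpv4 was too low for the filter, and its counts are given as counted. All 5 deeper controls held 0 counts of Trpv4, and so did control replicate 4. The high intensity libraries held 6, 4, 4 and 2 counts, the low intensity libraries 2, 2, 1, 0 and 5, the static libraries 6, 0 and 5, and the actuated libraries 6, 9, 6 and 5. Every deeper high intensity and every actuated library thus had at least 2 counts, while low intensity replicate 4 and static replicate 2 had 0. Of the other shallow libraries, high intensity replicate 4 and low intensity replicate 6 held 0 counts, high intensity replicate 5 held 2 and static replicate 3 held 7.

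Pooled over its libraries, Trpv4 was at 1.28 CPM in high intensity, 0.728 CPM in low intensity, 0.731 CPM in actuated and 0.362 CPM in static samples. With 0 counts, the pooled controls allow up to 3 counts, or 0.207 CPM, by counting error alone. Taking the lower end of the exact 95% Poisson interval of its own counts, high intensity was at least 3.54-fold higher than that limit, actuated at least 2.31-fold and low intensity at least 1.69-fold. The lower end for static, 0.181 CPM, was below the limit, so these limits did not separate static from control. Limits that overlap are not a test of a difference. These bounds cover counting error only, not the spread between samples. Low intensity replicate 5 held 5 of the 10 low intensity counts. Actuated against control was not among the 5 comparisons, and array, arm and depth cannot be told apart in it. In the edgeR fit without a filter on low counts, the adjusted p was 0.108 for high intensity against control (unadjusted p = 0.00276). It was 0.250 for low intensity (unadjusted p = 0.0105) and 0.439 for static (unadjusted p = 0.0275). It was 1 for actuated against static, so no Trpv4 difference passed.

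Tmem63a, the least abundant TMEM63 gene, had the largest log2 difference of the fitted members in 4 of the 5 comparisons. The controls held 2.01, 0, 0, 4.21 and 2.61 CPM, from 7, 0, 0, 9 and 9 counts, and the gene passed the filter on low counts through the other groups. The high intensity libraries were at 8.58, 2.43, 14.7 and 5.79 CPM and the low intensity libraries at 7.47, 10.5, 1.70, 1.90 and 12.2 CPM. High intensity replicates 1, 3 and 6 and low intensity replicates 1, 2 and 5 were above every control, and the others were not.

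The edgeR log2 difference of Tmem63a from control was 2.16 for high intensity (SE 0.73, adjusted p = 0.140, 95% interval 0.65 to 3.67). For low intensity it was 1.97 (SE 0.71, adjusted p = 0.170, 95% interval 0.50 to 3.43). Leaving out 1 library at a time gave 1.69 to 2.66 for high and 1.65 to 2.47 for low intensity, with both highest values when control replicate 5 was left out and the lowest when replicate 3 of the high or replicate 5 of the low group was. With all 26 libraries the values were 2.09 (adjusted p = 0.397) and 1.99 (adjusted p = 0.658). High intensity against control passed in DESeq2 (adjusted p = 0.0436) and in edgeR with no filter on low counts (log2 difference 2.18, SE 0.62, adjusted p = 0.0295).

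Skeletal muscle markers were checked beside these differences because the design text describes medium kept on muscle. The 6 markers Myod1, Myog, Ckm, Acta1, Ttn and Des summed to 8.46 to 101 CPM in the controls, 22.0 to 182 CPM in high intensity and 9.54 to 164 CPM in low intensity libraries. Myod1 and Myog were at 0 in all controls and Ckm at 0 in all high intensity libraries. The skeletal muscle sum had a rho of 0.69 with Tmem63a over the 14 biochemical libraries and 0.39 over all 21 deeper libraries. The motor neuron sum had -0.71 and -0.53. The summed mesenchymal markers had a rho of 0.51 with Tmem63a over the 14 biochemical libraries and 0.11 over the 7 array libraries, and the neuron sum -0.66 and -0.04. The part of any of these cell types in the Tmem63a differences was not tested.

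In the array arm Tmem63a was at 2.60, 3.20 and 2.83 CPM in static libraries, from 23, 43 and 23 counts. In actuated libraries it was at 5.48, 5.07, 4.97 and 6.59 CPM, from 42, 54, 45 and 54 counts. Every actuated library was above every deeper static one. Shallow static replicate 3, scaled by total counts alone, held 6.52 CPM from 4 counts. On that scale the actuated libraries held 4.94 to 6.84 CPM. Tmem63a was the only 1 of the 8 fitted members whose groups did not overlap, where 4.33% of all genes did not overlap in either direction and 2.1% were higher. The edgeR log2 difference was 0.93 (SE 0.76, adjusted p = 1, 95% interval -0.64 to 2.51) and lay between 0.84 and 1.02 when any 1 library was left out. With all 26 libraries it was 0.70 (SE 0.84). Each SE comes from a spread shared by all 5 groups. In the deeper libraries the SD of Tmem63a was 0.302 CPM in static and 0.745 CPM in actuated samples. It was 4.84 CPM in low and 5.21 CPM in high intensity samples.

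Mesenchymal markers summed to 154 to 769.9 CPM in static and 47.7 to 583 CPM in actuated libraries, so the array groups overlapped in that sum. Static against control gave a log2 difference of 0.72 for Tmem63a (edgeR, SE 0.77, adjusted p = 0.760), and it was 0.40 without control replicate 2, 1.22 without control replicate 5 and 1.05 with all 26 libraries. Tmem63a has an annotated antisense gene, 2210411M09Rik, whose reads cannot be told apart from its own without strand.

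**Figure D3:**
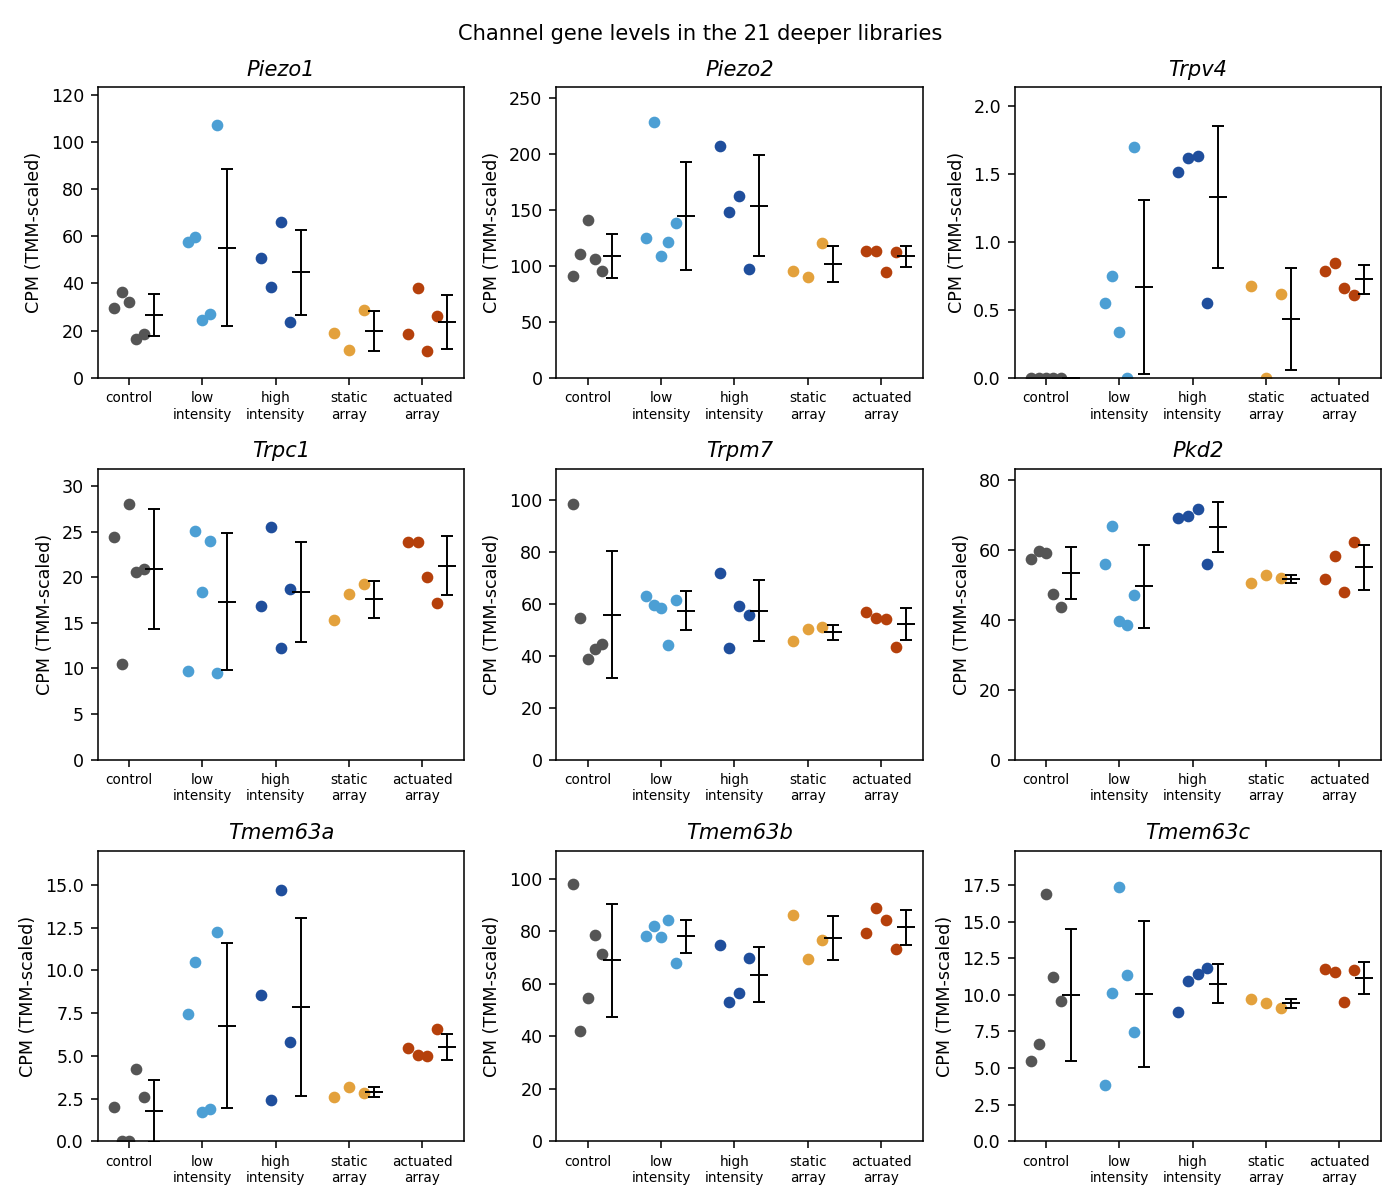
Level of each member in each deeper library (CPM), by group, 1 point per library, with the group mean (dash) and SD (whiskers, ending at the axis where they would pass 0) beside the points. Tmem63a lies at 4.97 to 6.59 CPM in all 4 actuated and 2.60 to 3.20 CPM in all 3 static libraries, and Trpv4 is at 0 in all 5 controls.

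Tmem63b was the steadiest TMEM63 gene, at 42.1 to 97.8 CPM over the deeper libraries. Its edgeR log2 difference from control was -0.11 for high intensity (95% interval -0.47 to 0.24) and 0.18 for low intensity (95% interval -0.16 to 0.51), and that of actuated from static 0.07 (95% interval -0.31 to 0.46). Tmem63b overlaps Mrpl14 on the opposite strand. Tmem63c ranged from 3.87 to 17.4 CPM, and both ends of that range were low intensity libraries (replicates 1 and 3). Its log2 difference from control was 0.12 for high intensity (95% interval -0.61 to 0.85) and 0.01 for low intensity (95% interval -0.69 to 0.71).

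Set side by side, the estimated differences of the 8 fitted members had a median log2 value of 0.22 for high intensity against control and 0.11 for low intensity against control, where the medians over all genes were 0.00 and -0.01. For high intensity 6 were above 0 and 2 below, and the same counts held for low intensity. For actuated against static all 8 estimates were above 0, at 0.07 to 0.93 with a median of 0.16, against a median of 0.00 over all genes, and none passed the test. For static against control 2 were above and 6 below 0, with a median of -0.08. In that comparison the 5 motor neuron markers had a median log2 difference of -0.88. By edgeR 3 of them had an unadjusted p under 0.05, where the share of all genes was 12.6%. Only 1 passed the adjusted threshold, the choline transporter gene Slc5a7, at -1.88 (edgeR, SE 0.31, adjusted p = 0.00392). Other marker lists differed in direction there, with medians of 1.86 for the 5 oligodendrocyte lineage markers and 0.48 for the 5 astrocyte or radial glia markers. The medians were -0.01 for the neuron and -0.59 for the mesenchymal markers. Each of the 2 glial lists had 4 genes with an unadjusted p under 0.05 by edgeR, and 0 passed. The array itself, the arm and the depth cannot be told apart. High against low intensity ran from -0.32 to 0.42.

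**Figure D4:**
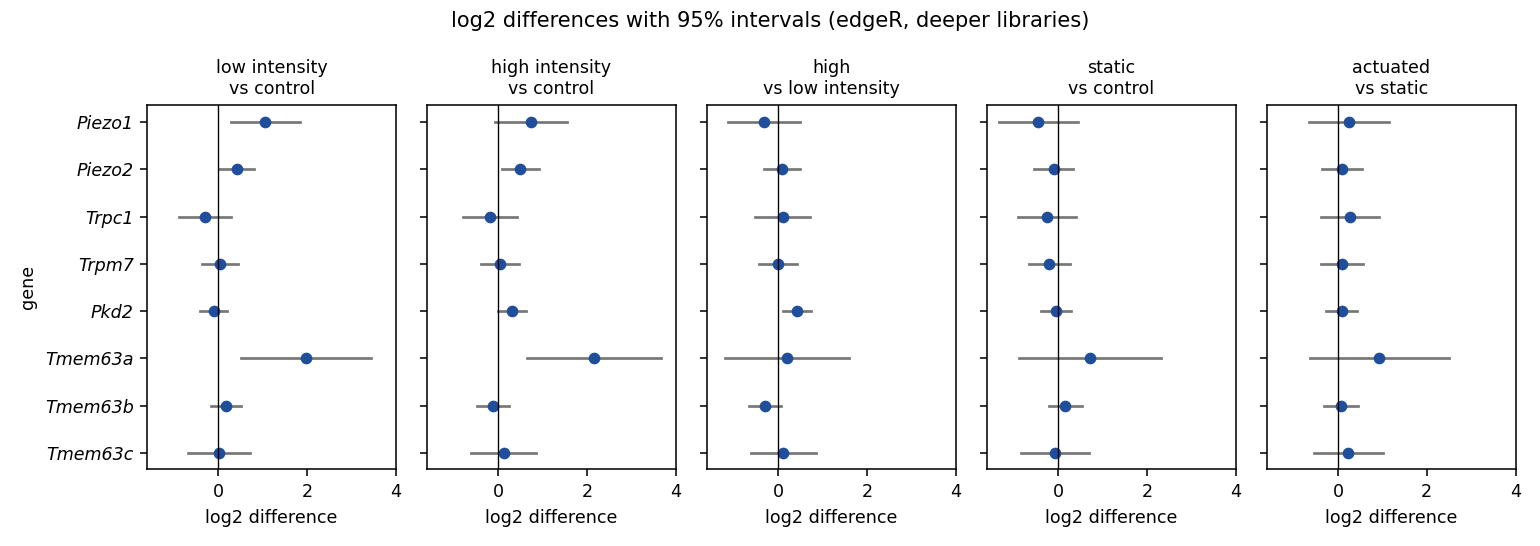
Estimated log2 difference of each fitted member in each of the 5 comparisons (edgeR), with its 95% interval. Tmem63a is farthest from 0 in high intensity against control at 2.16 and in low intensity against control at 1.97, and no member passed the adjusted threshold.

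The genes whose levels over the 21 libraries were most like each member were taken from 11329 fitted protein-coding genes of at least 5 CPM on average, by Spearman rho of log2 CPM. For Piezo1 they were Myh9, the heavy chain of nonmuscle myosin IIA, at 0.94, Ltbp1, a TGF-beta binding protein of the matrix, at 0.93, and Cald1, the actin-binding caldesmon, at 0.91. For Piezo2 they were Ston1 at 0.88, the drug exporter gene Abcc1 at 0.86 and Tns1, a focal adhesion tensin, at 0.86. The nearest genes of the others lay lower, and no link in function follows from a like pattern.

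For Trpm7 the nearest were Abcb1b (0.82), Zfp143 (0.82) and Arhgef40 (0.81), and for Trpc1 they were Zfp287 (0.81), Rtn4 (0.80) and Ube2d1 (0.78). The nearest of Tmem63b were Srd5a3 (0.80), Ptdss1 (0.79) and Mapk3 (0.78). For Tmem63c they were Acsl1 (0.76), Fgf15 (0.73) and the calcium pump gene Atp2b4 (0.72), and for Pkd2 Rnpepl1, Fcgrt and Mlec at 0.74 each. Tmem63a, at 4.99 CPM on average, and Trpv4 were below the minimum of 5 CPM.

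Other genes of mechanical and calcium signalling were taken from 3 lists. Of 20 other mechanically gated or stretch-modulated channels 14 were fitted, and 0 passed in any of the 5 comparisons. The most abundant were Lrrc8a, a subunit of the volume-regulated anion channel, at 34.3 TPM, Tmem120a at 25.7 TPM and Asic1, an acid-sensing channel, at 21.4 TPM, all above Piezo2 in mean TPM. Of 12 partners and regulators of the member channels 11 were fitted and 0 passed; the most abundant were Atp2a2, the calcium pump of the endoplasmic reticulum, at 121 TPM, the scaffold gene Homer1 at 47.7 TPM and the lipid phosphatase gene Mtmr2 at 27.5 TPM.

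The calcineurin and NFAT list holds the calcium-dependent phosphatase and the transcription factors it activates. All 9 genes were fitted and 0 passed. Ppp3r1, the regulatory subunit of calcineurin, was at 133 TPM, Rcan2, a calcineurin regulator, at 88.5 TPM and Ppp3ca, a catalytic subunit, at 65.9 TPM. In high intensity against control 5 of these 9 had an unadjusted p under 0.05, where the share of all genes was 15.9%, and 3 of the 25 fitted genes of the other lists did. These 5, named after their values were seen, differed in sign: the log2 difference was 0.87 for Nfatc3 and 1.82 for Nfatc4, and -0.42 for Ppp3ca, -0.26 for Ppp3r1 and -0.40 for Rcan2. The list's median was -0.21 against 0.00 over all genes. In actuated against static 0 of the 34 fitted genes of the 3 lists had an unadjusted p under 0.05.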

How the data were processed

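The authors deposited 2 tables of 56941 genes, one of estimated counts per gene and one of TPM, each with 1 column per sample. The submitters' processing notes name STAR, Salmon, BWA 0.7.12-r1039 and bedtools 2.25.0 and the builds mm10, hg19 and GRCm39, with no role; which tool made the tables is not given in the sources used here. Libraries were made from 4 ng of RNA (full volume for the 8 weakest samples) and read as 50-base pairs, per the labels' protocols.

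The estimated counts were rounded and fitted with edgeR 4.0.16 (R 4.3.3; quasi-likelihood test, TMM, default low-count filter, 1 coefficient per group), with adjusted p under 0.05 as threshold. The main fit held the 21 libraries with at least 1000000 protein-coding counts, with a common dispersion of 0.0923, against 0.251 with all 26. An SE is the log2 difference divided by the square root of F. TPM served only for levels between genes, since it shifted the median gene between groups. No pair of libraries agreed within sampling noise (325 pairs, chi-square per degree of freedom at least 4.74). The fit was tested on simulated counts. Alternatives were all 26 libraries, DESeq2 1.42.0 and its size factors, other filters, limma 3.58.1 (voom with quality weights; log2 of TPM plus 1 or 0.1), only the groups compared, a replicate block and each library left out.

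The members and gene lists were chosen with earlier results of these data known. A member is given with its statistics where it passed, had an unadjusted p under 0.05 or had the largest log2 difference of a comparison. Listed genes are named where they passed, otherwise the 3 with the highest TPM. Limits for counts of 0 use 3 counts. One list of cell type markers is not reported here.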

Additional observations from a re-analysis of the deposited data

Results flagged for a closer look

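In 7 of 35 member-by-group sets of 4 or 5 deeper libraries, 1 library lay apart from the rest of its group by Dixon's ratio at the 95% level; chance alone marks about 1 in 20 sets. Low intensity replicate 2 held 228 CPM of Piezo2, where the other low intensity libraries held 108 to 138. Actuated replicate 3 held 94.1 CPM of Piezo2, below the 112 to 114 CPM of the other actuated libraries, and 9.49 CPM of Tmem63c, below their 11.5 to 11.7 CPM. High intensity replicate 6 was low in 2 members, with 0.551 CPM of Trpv4 (2 counts) against 1.51 to 1.64 CPM and 55.9 CPM of Pkd2 against 69.1 to 71.5 CPM. Control replicate 1 held 98.3 CPM of Trpm7 against 38.8 to 54.7 CPM in the other controls, and low intensity replicate 4 held 44.3 CPM against 58.2 to 63.1 CPM.

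The 5 shallow libraries stand outside the main comparisons, and they were scaled by total counts alone. In 2 of them a member had more than 3 counts and a lower 95% Poisson limit above every deeper control. High intensity replicate 4 had 181 CPM of Piezo1 from 44 counts and 550.3 CPM of Piezo2 from 134 counts, and its counts of the other 7 members were 0. Static replicate 3 had 11.4 CPM of Trpv4 from 7 counts and 39.1 CPM of Trpc1 from 24 counts. Values above every deeper control without meeting both conditions were those of Tmem63a (8.08 CPM, 4 counts), Tmem63c (18.2 CPM, 9 counts) and Trpv4 (4.04 CPM, 2 counts) in high intensity replicate 5 and of Tmem63a (6.52 CPM, 4 counts) in static replicate 3. Static replicate 3 detected 31731 genes from 613344 counts, and high intensity replicate 5 detected 24236 from 495044. The deeper libraries detected 15011 to 23420 genes, and high intensity replicate 4 only 4142. The part of these unlike gene numbers in the values was not tested.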

How the results depend on the processing

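None of the 8 member differences given with statistics changed sign under any alternative: 239 of 247 refitted values stayed on the same side of the threshold and 8 newly passed it. With no filter on low counts 3 members (Piezo1, Piezo2 and Tmem63a) passed in high intensity against control and 1 (Piezo1) in low intensity against control, and the counts of all genes called were 40 for actuated against static, 700 for high intensity and 660 for low intensity against control, 126 for high against low intensity and 459 for static against control. DESeq2 called 1 member (Tmem63a, high intensity) and 2, 466, 470, 41 and 380 genes in the same order. On log2 TPM plus 1 it was 2 members for high intensity (Tmem63a and Pkd2), 2 for low intensity (Tmem63a and Tmem63b), and 2324, 5440, 2 and 1091 genes from high intensity against control onward. On log2 TPM plus 0.1 it was 2 (Tmem63a and Pkd2) and 3 members (Tmem63a, Pkd2 and Tmem63b), and 2292, 5537, 1 and 1145 genes. TPM moved the median gene by 0.53 (high), 0.64 (low) and 0.50 (static against control) on the log2 scale with 1 added, and nearly all of its calls were higher (2315 of 2324 for high intensity). With all 26 libraries 6 genes were called for high intensity, 4 for low intensity and 2 for static against control. With only the groups compared it was 17, 21 and 42, where Tmem63a was not fitted for low intensity. Voom with quality weights called 0 for high and 1 for low intensity. Leaving out 1 library at a time gave 0 to 0 genes for actuated against static, 0 (without high intensity replicate 1) to 397 (without high intensity replicate 6), 2 (without low intensity replicate 1) to 264 (without low intensity replicate 3), 0 to 3 for high against low intensity, and 18 (without static replicate 4) to 141 (without control replicate 6) for static against control; members called stayed at 0. Of static against control calls 44 of 105 were higher, 60 of 101 with at least 1 CPM in 4 libraries, and 137 of 380 in DESeq2. The cause of these changes was not tested. With the replicate block the counts were 2, 8 and 36 genes for high intensity, low intensity and static against control, and 0 members passed. Same-numbered libraries of the groups compared had correlations of -0.22 to 0.18, and 3 of 16 correlated best with their own number, so the numbers were not taken as pairs. In deeper libraries 3 counts equal 0.228 to 1.93 CPM for any gene.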
